A study of Rattus norvegicus with 21 samples.

Results

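The genes of DNA replication and the genes of mitosis were followed through a time course of FGF1 stimulation in 2 rat bladder carcinoma lines. A probe set was taken where the array's annotation gave it a single gene symbol from a list of 55 genes, 29 of replication and 26 of mitosis. Where a gene had several such probe sets, the one with the highest mean over all 21 arrays was used. The list gave 44 measured genes of 10411 single symbols on the array: 26 replication genes and 18 mitosis genes. Cdc6, Rfc5 and Rrm2 among the replication genes, and Ccna2, Bub1, Cenpa, Kif11, Tpx2, Nusap1, Prc1 and Ect2 among the mitosis genes, had no such probe set and are not analysed here. No filter on low values was applied, so all 44 entered every test.

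NBTII is an epithelial line from a rat bladder carcinoma, and NBTII-FGFR1 is the same line transfected with fibroblast growth factor receptor 1. The series profiled these carcinoma cells through an epithelial-mesenchymal transition, the change in which epithelial cells lose their contacts and become migratory. Both lines received FGF1 at 20 ng/ml with heparin, and RNA was taken at 0.5, 2, 6, 24 and 48 h, while the cells labelled 0 h served as controls. NBTII had 1 array at 0 h and at 0.5 h and 2 at each later time, and NBTII-FGFR1 had 1 array at 0.5 h and 2 at every other time. No array after 0 h came without FGF1, so elapsed time, heparin and handling cannot be told apart from it. The labels do not name the promoter of the receptor transgene or say whether the transfected cells were 1 clone. The labels also do not say that replicates were separate cultures, so a p-value here measures the spread between these arrays, which may be technical.

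Before each S phase, the MCM helicase is loaded on replication origins, and during S phase it unwinds DNA for the polymerases, while the clamp PCNA holds them on the template and a supply of deoxynucleotides is made. Genes of this machinery are largely controlled by E2F transcription factors, and their transcripts peak around the G1/S transition. Mitosis genes encode cyclin B, CDK1, the Aurora and Polo kinases, the spindle checkpoint, the anaphase-promoting ubiquitin ligase and the motors of the spindle, and their transcripts peak in G2 and M under the control of the DREAM, B-MYB and FOXM1 factors through CCAAT and CHR elements. In a bulk culture the level of either class follows the share of cells in those phases as well as the transcript made per cell, and fewer cells of a kind and less RNA per cell cannot be told apart.

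Because members of each class moved together, the 250 bases before the start of 4 members are shown, with the letters of 3 motifs in capitals. Each was searched on both strands. The E2F motif was either TTCCCGC or its variant form TTGGCGC. The CCAAT box was searched by those letters. The CHR motif was searched as TTTGAA. The E2F variant and a CCAAT box read on the opposite strand can share letters. The windows come from the RefSeq promoter table of the rat assembly GRCr8 and are written 5′ to 3′ on the gene's strand. Mcm6 lies at chr13:42404353-42404602, minus strand, Pola1 at chrX:62342356-62342605, minus strand, Cdk1 at chr20:19265043-19265292, plus strand and Top2a at chr10:84473094-84473343, minus strand.
Mcm6: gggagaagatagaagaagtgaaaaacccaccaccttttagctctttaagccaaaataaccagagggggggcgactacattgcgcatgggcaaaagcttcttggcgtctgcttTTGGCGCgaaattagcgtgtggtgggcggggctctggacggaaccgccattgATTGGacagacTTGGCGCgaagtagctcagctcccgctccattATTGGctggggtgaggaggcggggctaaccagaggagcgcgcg
Pola1: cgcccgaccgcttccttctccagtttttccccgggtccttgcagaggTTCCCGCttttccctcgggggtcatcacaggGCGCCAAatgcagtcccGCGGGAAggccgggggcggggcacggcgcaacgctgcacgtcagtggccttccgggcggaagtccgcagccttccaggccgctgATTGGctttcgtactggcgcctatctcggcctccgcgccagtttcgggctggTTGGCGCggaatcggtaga
Cdk1: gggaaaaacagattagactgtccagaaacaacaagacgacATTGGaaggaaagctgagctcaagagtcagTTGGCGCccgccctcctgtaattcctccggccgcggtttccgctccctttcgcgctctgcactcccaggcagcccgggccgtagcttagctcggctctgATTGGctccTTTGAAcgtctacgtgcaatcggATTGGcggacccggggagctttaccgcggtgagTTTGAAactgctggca
Top2a: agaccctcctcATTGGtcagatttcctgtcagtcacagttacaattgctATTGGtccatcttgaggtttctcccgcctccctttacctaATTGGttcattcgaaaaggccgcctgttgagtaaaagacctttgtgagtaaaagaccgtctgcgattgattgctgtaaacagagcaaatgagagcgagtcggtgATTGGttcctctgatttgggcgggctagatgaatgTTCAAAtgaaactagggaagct
Mcm6, a helicase subunit, shows 2 E2F and 2 CCAAT matches, and Pola1, the catalytic subunit of DNA polymerase alpha, shows 4 E2F matches and 1 CCAAT match. Cdk1, the mitotic cyclin-dependent kinase, shows 1 E2F, 3 CCAAT and 2 CHR matches, and Top2a, the topoisomerase that untangles sister chromatids, shows 4 CCAAT matches and 1 CHR match with no E2F letters in the window.

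Over the members with a single entry in that table, 24 replication and 15 mitosis genes, the motifs were counted in each class. An E2F match stood in 37.5% of replication windows and 13.3% of mitosis windows, against 5.0% of all 33469 windows of this length. A CHR match stood in 4.17% of replication windows and 60.0% of mitosis windows, against 16.2% of all. A CCAAT match stood in 58.3% and 80.0%, against 34.0%, and at least 2 of them stood in 33.3% and 66.7%, against 9.42%. These matches describe letters, not bound sites, and the absence of a match says only that those letters are not in the window. None of the 3 motifs stood in the windows of 10 members, among them Prim1, Fen1, Bub1b and Aurka.

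Values are log2 levels after RMA, the array summary that corrects background, normalizes and combines the probes of a probe set, so a difference of 1 is a doubling, and levels are compared only within a probe set. Replicate arrays correlated at 0.988 to 0.997. Of the epithelial markers 9 of 10 lay above the highest lower quartile of any array (4.54), a cut that most probe sets pass. So did 4 of 6 leukocyte markers, 1 of 6 fibroblast markers and 0 of 3 endothelial markers. Among the epithelial markers Krt18 (5.75), Cldn7 (4.89) and Krt19 (3.61) averaged below the lowest array median of 6.13. The other epithelial markers, from Cldn4 at 8.86 to Krt14 at 13.28, averaged above the highest, 6.22. Of the leukocyte markers Cd14 averaged 7.76, Cd68 5.66, Lyz2 5.05 and Aif1 5.03, while Ptprc, the common leukocyte antigen, averaged 3.58 and Cd3e, of T cells, 3.52. Fgfr1 ranged from 3.58 to 4.05 over NBTII arrays. It read 3.57 on the NBTII-FGFR1 0 h array labelled replicate 1 and 5.92 on its partner. On NBTII-FGFR1 24 h replicate 1 it read 4.56 against 6.14 on its partner, and on the other NBTII-FGFR1 arrays it ranged from 5.37 to 7.58. NBTII-FGFR1 2 h replicate 1 correlated best with the NBTII 0.5 h array (0.990) and least well of all replicates with its own partner. Replicate 2 of that group correlated best with NBTII 2 h replicate 2, and that array with it (0.993), above their correlations with their own partners, 0.988 and 0.992. Below, "the doubted arrays" stands for the first 0 h library labelled NBTII-FGFR1 together with replicate 1 of its 2 h group. The poly-A control RNAs, added to the sample before labelling, averaged 6.13 to 6.64 over 27 probe sets at 0 h and 5.33 to 5.72 on the other 18. Any difference from 0 h thus sets the one range against the other, and their part in the result was not tested. Differences among 2, 6, 24 and 48 h do not, and they carry the account that follows.

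The replication class passed through a trough at 6 h in both lines, recovered by 24 h in both, and fell again at 48 h in NBTII-FGFR1. Each member's level was centred on its own mean over the 21 arrays, and the median over the class was taken on each array. For the 26 replication genes this median was -0.30 and -0.47 at 6 h in NBTII and -0.60 and -0.47 in NBTII-FGFR1. At 24 h it was 0.39 and 0.40 in NBTII and 0.28 and 0.25 in NBTII-FGFR1, and at 48 h it was 0.10 and 0.02 against -0.72 and -0.57. The 6 h arrays of both lines and the 48 h arrays of NBTII-FGFR1 were the 6 arrays below 0.

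**Figure D1:**
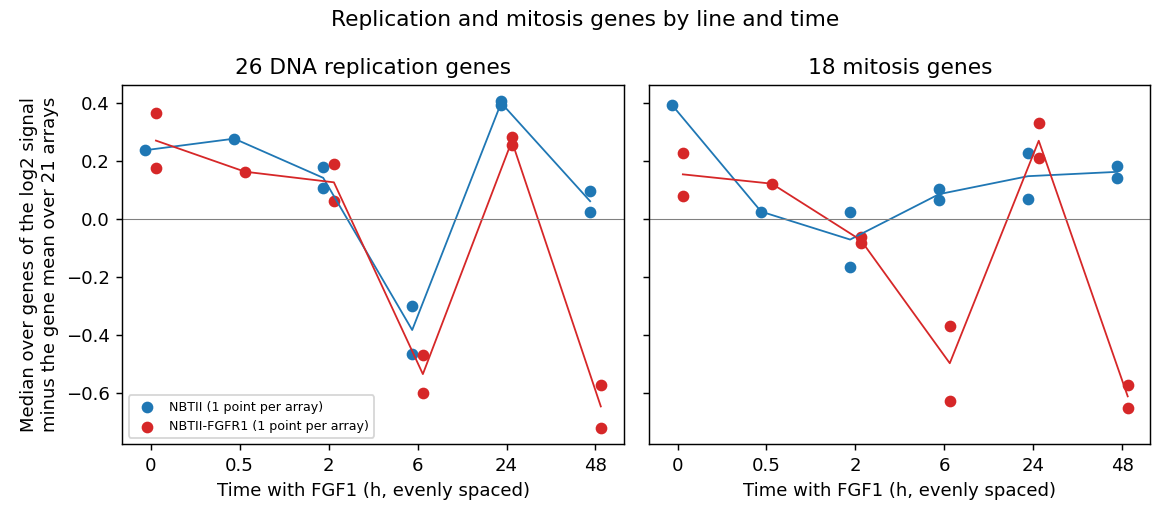
Median centred log2 level of the 26 replication genes and the 18 mitosis genes on each array (points) against time after FGF1 (h), by line, with lines through the group means. The replication median is -0.30 or lower on all 6 h arrays, while the mitosis median at 6 h is 0.07 and 0.10 in NBTII and -0.63 and -0.37 in NBTII-FGFR1.

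The mitosis class had no such trough at 6 h in NBTII. Its median in NBTII was 0.39 at 0 h and 0.02 at 0.5 h, on 1 array each. It was then -0.17 and 0.02 at 2 h, 0.07 and 0.10 at 6 h, 0.23 and 0.07 at 24 h, and 0.14 and 0.18 at 48 h. In NBTII-FGFR1 it was 0.08 and 0.23 at 0 h and 0.12 at 0.5 h. It was then -0.06 and -0.08 at 2 h, -0.63 and -0.37 at 6 h, 0.33 and 0.21 at 24 h, and -0.65 and -0.57 at 48 h. The lowest group mean of a replication gene fell at NBTII-FGFR1 48 h for 16 genes, at NBTII-FGFR1 6 h for 8 and at NBTII 6 h for 2. For the mitosis genes it fell at NBTII-FGFR1 48 h for 11, at NBTII-FGFR1 6 h for 6 and at NBTII-FGFR1 2 h for Kif22 alone, and at no NBTII time for any.

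**Figure D2:**
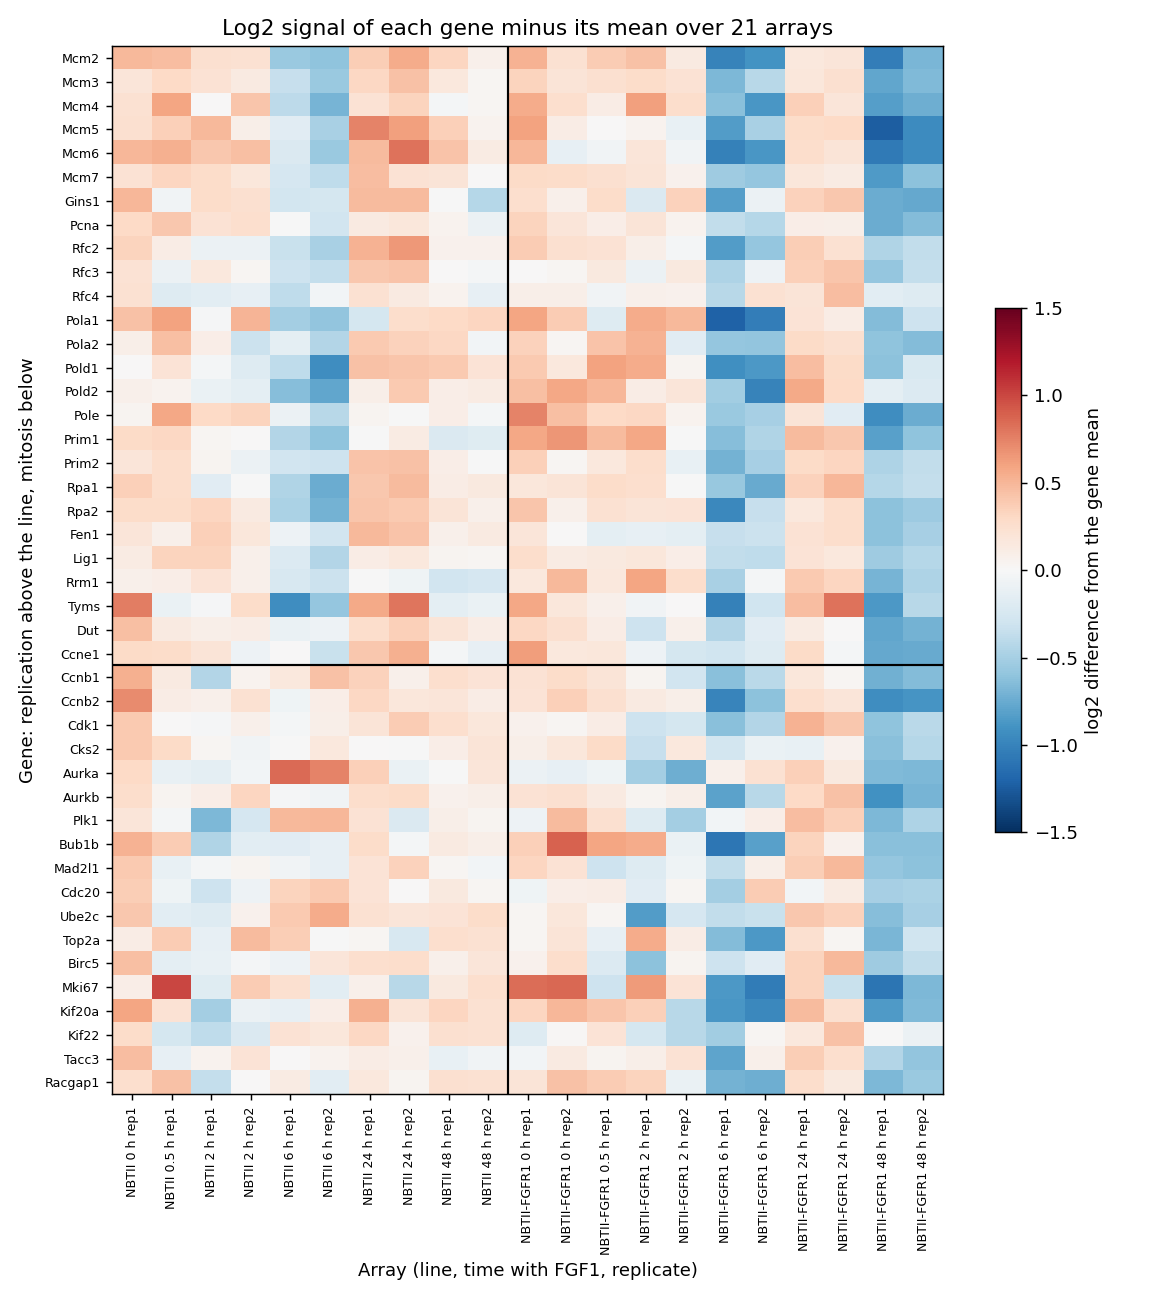
Centred log2 level (colour) of each of the 44 members (rows, by class and role) on each of the 21 arrays (columns, by line and time). Replication rows are low at 6 h in both lines, and most mitosis rows are low at 6 and 48 h in NBTII-FGFR1.

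The helicase subunit Mcm2 read 9.58 at 0 h, 9.56 at 0.5 h, 9.34 and 9.31 at 2 h, 8.54 and 8.49 at 6 h, 9.46 and 9.65 at 24 h and then 9.41 and 9.17 at 48 h in NBTII. Mcm2 in NBTII-FGFR1 read 9.61 and 9.32 at 0 h, 9.47 at 0.5 h, 9.53 and 9.22 at 2 h, 8.09 and 8.20 at 6 h, 9.25 and 9.27 at 24 h and then 8.05 and 8.41 at 48 h. The 4 arrays at 6 h and the NBTII-FGFR1 arrays at 48 h lay below the other 15, with no overlap. From 2 to 6 h Mcm2 fell by 0.81 ± 0.15 in NBTII (limma, adjusted p = 0.0092) and by 1.23 ± 0.15 in NBTII-FGFR1 (adjusted p = 0.00012). Every subunit from Mcm2 to Mcm7 was called lower at 6 h than at 2 h in NBTII-FGFR1 and higher again at 24 h in both lines.

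Pcna, the sliding clamp, read 11.79 at 0 h, 11.89 at 0.5 h, 11.71 and 11.74 at 2 h, 11.48 and 11.21 at 6 h, 11.62 and 11.67 at 24 h and then 11.54 and 11.41 at 48 h in NBTII. Pcna in NBTII-FGFR1 read 11.83 and 11.67 at 0 h, 11.59 at 0.5 h, 11.69 and 11.54 at 2 h, 11.12 and 11.06 at 6 h, 11.59 and 11.58 at 24 h and then 10.75 and 10.84 at 48 h. The NBTII-FGFR1 arrays at 6 and 48 h were the lowest 4 of the 21, and those at 48 h lay below those at 6 h. Rfc3, a subunit of the loader that places the clamp, read 9.13 at 0 h, 8.82 at 0.5 h, 9.07 and 8.93 at 2 h, 8.60 and 8.55 at 6 h, 9.32 and 9.34 at 24 h and then 8.92 and 8.88 at 48 h in NBTII. Rfc3 in NBTII-FGFR1 read 8.91 and 8.93 at 0 h, 9.05 at 0.5 h, 8.82 and 9.06 at 2 h, 8.44 and 8.83 at 6 h, 9.27 and 9.33 at 24 h and then 8.33 and 8.56 at 48 h. Its NBTII-FGFR1 arrays at 6 h overlapped those at 2 h, and the difference of -0.30 ± 0.13 missed the threshold (adjusted p = 0.13). Rfc4, another loader subunit, was called in none of the comparisons of 6 with 2 h, 24 with 6 h and 48 with 24 h in either line.

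Pola1 begins both strands with primase. It read 8.31 at 0 h, 8.48 at 0.5 h, 7.86 and 8.39 at 2 h, 7.37 and 7.29 at 6 h, 7.61 and 8.14 at 24 h and then 8.17 and 8.20 at 48 h in NBTII. Pola1 in NBTII-FGFR1 read 8.46 and 8.26 at 0 h, 7.68 at 0.5 h, 8.43 and 8.37 at 2 h, 6.67 and 6.84 at 6 h, 8.08 and 7.99 at 24 h and then 7.22 and 7.57 at 48 h. The NBTII-FGFR1 arrays at 6 h were the lowest of the 21, and its fall of 1.64 ± 0.18 from 2 h was the largest of the class (adjusted p = 7.9e-05). Prim1, the primase that makes the RNA primers, read 8.82 at 0 h, 8.84 at 0.5 h, 8.55 and 8.54 at 2 h, 8.09 and 7.93 at 6 h, 8.53 and 8.65 at 24 h and then 8.32 and 8.35 at 48 h in NBTII. Prim1 in NBTII-FGFR1 read 9.11 and 9.19 at 0 h, 9.001 at 0.5 h, 9.11 and 8.53 at 2 h, 7.89 and 8.08 at 6 h, 9.01 and 8.94 at 24 h and then 7.72 and 7.93 at 48 h. The 6 h arrays of both lines and the NBTII-FGFR1 arrays at 48 h lay below the other 15 without overlap.

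Fen1, the nuclease that trims Okazaki fragments, read 9.49 at 0 h, 9.39 at 0.5 h, 9.67 and 9.48 at 2 h, 9.24 and 9.03 at 6 h, 9.80 and 9.74 at 24 h and then 9.39 and 9.45 at 48 h in NBTII. Fen1 in NBTII-FGFR1 read 9.49 and 9.31 at 0 h, 9.17 at 0.5 h, 9.19 and 9.17 at 2 h, 8.97 and 8.99 at 6 h, 9.53 and 9.58 at 24 h and then 8.70 and 8.82 at 48 h. Its lowest 2 arrays were NBTII-FGFR1 at 48 h, and the fall from 2 to 6 h in that line (-0.20 ± 0.11, adjusted p = 0.22) missed the threshold. Tyms, which makes thymidylate, read 6.70 at 0 h, 5.82 at 0.5 h, 5.91 and 6.205 at 2 h, 4.99 and 5.34 at 6 h, 6.50 and 6.73 at 24 h and then 5.78 and 5.82 at 48 h in NBTII. Tyms in NBTII-FGFR1 read 6.50 and 6.10 at 0 h, 6.00 at 0.5 h, 5.88 and 5.93 at 2 h, 4.92 and 5.63 at 6 h, 6.39 and 6.74 at 24 h and then 5.06 and 5.51 at 48 h. The 6 h arrays of both lines and NBTII-FGFR1 at 48 h were again the lowest 6 arrays. Ccne1, the G1/S cyclin that activates CDK2, read 8.15 at 0 h, 8.14 at 0.5 h, 8.06 and 7.80 at 2 h, 7.87 and 7.54 at 6 h, 8.27 and 8.41 at 24 h and then 7.84 and 7.75 at 48 h in NBTII. Ccne1 in NBTII-FGFR1 read 8.502 and 8.02 at 0 h, 8.04 at 0.5 h, 7.79 and 7.61 at 2 h, 7.57 and 7.68 at 6 h, 8.15 and 7.84 at 24 h and then 7.11 and 7.12 at 48 h. Its 2 and 6 h arrays overlapped in both lines, and NBTII-FGFR1 at 48 h held the lowest 2 values.

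**Figure D3:**
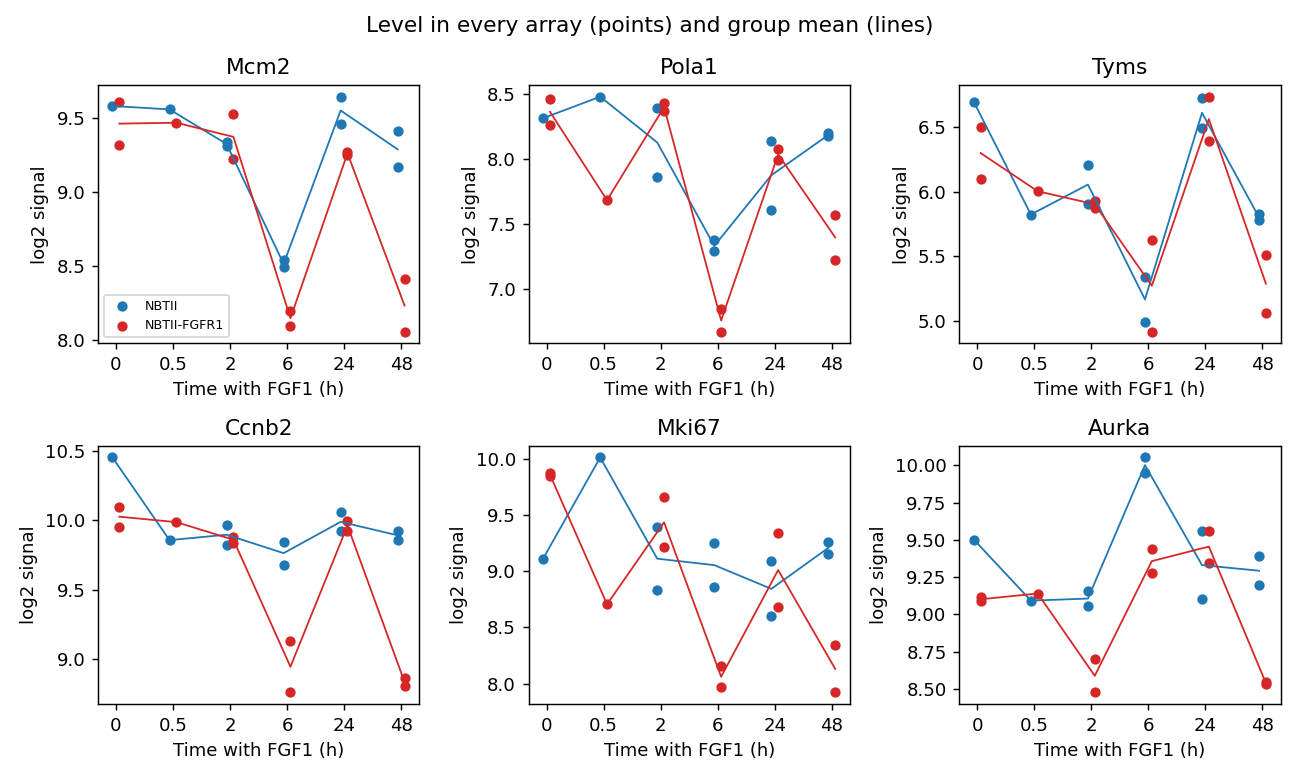
Log2 level on each array (points) against time after FGF1 (h) for Mcm2, Pola1, Tyms, Ccnb2, Mki67 and Aurka, with lines through the group means of NBTII and NBTII-FGFR1. Mcm2, Pola1 and Tyms dip at 6 h in both lines, Ccnb2 and Mki67 dip at 6 and 48 h in NBTII-FGFR1, and Aurka is highest at 6 h in NBTII, at 10.05 and 9.95.

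Among the mitosis genes, Ccnb1, a cyclin that drives entry into mitosis, read 10.84 at 0 h, 10.45 at 0.5 h, 9.87 and 10.36 at 2 h, 10.46 and 10.75 at 6 h, 10.66 and 10.39 at 24 h and then 10.56 and 10.51 at 48 h in NBTII. Ccnb1 in NBTII-FGFR1 read 10.52 and 10.58 at 0 h, 10.51 at 0.5 h, 10.35 and 10.02 at 2 h, 9.68 and 9.91 at 6 h, 10.48 and 10.33 at 24 h and then 9.59 and 9.66 at 48 h. Its low values were NBTII-FGFR1 at 6 and 48 h, but NBTII 2 h replicate 1 lay within their range. Ccnb2, the related cyclin, read 10.45 at 0 h, 9.86 at 0.5 h, 9.82 and 9.97 at 2 h, 9.68 and 9.85 at 6 h, 10.06 and 9.92 at 24 h and then 9.93 and 9.86 at 48 h in NBTII. Ccnb2 in NBTII-FGFR1 read 9.95 and 10.10 at 0 h, 9.99 at 0.5 h, 9.88 and 9.84 at 2 h, 8.76 and 9.13 at 6 h, 9.997 and 9.93 at 24 h and then 8.81 and 8.86 at 48 h. Here the 4 NBTII-FGFR1 arrays at 6 and 48 h lay below the other 17 by a gap wider than their own range. Cdk1, their partner kinase, read 10.88 at 0 h, 10.48 at 0.5 h, 10.46 and 10.56 at 2 h, 10.45 and 10.57 at 6 h, 10.68 and 10.86 at 24 h and then 10.73 and 10.65 at 48 h in NBTII. Cdk1 in NBTII-FGFR1 read 10.55 and 10.51 at 0 h, 10.59 at 0.5 h, 10.17 and 10.22 at 2 h, 9.85 and 10.04 at 6 h, 11.003 and 10.88 at 24 h and then 9.88 and 10.08 at 48 h. The same 4 arrays were lowest, and NBTII-FGFR1 at 24 h held the highest.

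Bub1b, a spindle checkpoint kinase homologue that delays anaphase, read 6.88 at 0 h, 6.74 at 0.5 h, 5.90 and 6.196 at 2 h, 6.18 and 6.23 at 6 h, 6.62 and 6.32 at 24 h and then 6.49 and 6.44 at 48 h in NBTII. Bub1b in NBTII-FGFR1 read 6.71 and 7.24 at 0 h, 6.95 at 0.5 h, 6.91 and 6.25 at 2 h, 5.27 and 5.53 at 6 h, 6.68 and 6.42 at 24 h and then 5.73 and 5.73 at 48 h. NBTII-FGFR1 at 6 h and then at 48 h were lowest. Top2a read 9.31 at 0 h, 9.57 at 0.5 h, 9.06 and 9.66 at 2 h, 9.56 and 9.18 at 6 h, 9.22 and 8.95 at 24 h and then 9.44 and 9.42 at 48 h in NBTII. Top2a in NBTII-FGFR1 read 9.22 and 9.38 at 0 h, 9.07 at 0.5 h, 9.74 and 9.30 at 2 h, 8.54 and 8.33 at 6 h, 9.43 and 9.22 at 24 h and then 8.504 and 8.89 at 48 h. The NBTII-FGFR1 arrays at 6 and 48 h lay below the other 17, with a narrow gap. Mki67, the proliferation antigen that coats mitotic chromosomes, read 9.11 at 0 h, 10.01 at 0.5 h, 8.83 and 9.39 at 2 h, 9.25 and 8.86 at 6 h, 9.09 and 8.60 at 24 h and then 9.15 and 9.26 at 48 h in NBTII. Mki67 in NBTII-FGFR1 read 9.84 and 9.87 at 0 h, 8.71 at 0.5 h, 9.66 and 9.21 at 2 h, 8.16 and 7.97 at 6 h, 9.34 and 8.68 at 24 h and then 7.92 and 8.34 at 48 h. Those 4 arrays were again the lowest, while the NBTII-FGFR1 replicates at 24 h were wide apart.

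Birc5, the survivin subunit of the Aurora B complex, read 9.87 at 0 h, 9.27 at 0.5 h, 9.30 and 9.39 at 2 h, 9.34 and 9.60 at 6 h, 9.67 and 9.68 at 24 h and then 9.49 and 9.59 at 48 h in NBTII. Birc5 in NBTII-FGFR1 read 9.48 and 9.68 at 0 h, 9.22 at 0.5 h, 8.81 and 9.46 at 2 h, 9.10 and 9.25 at 6 h, 9.76 and 9.90 at 24 h and then 8.88 and 9.05 at 48 h. Replicate 1 at 2 h in NBTII-FGFR1, a doubted array, held the lowest value of the 21. Ube2c, the ubiquitin-conjugating enzyme of the anaphase-promoting complex, read 10.88 at 0 h, 10.33 at 0.5 h, 10.29 and 10.55 at 2 h, 10.88 and 11.04 at 6 h, 10.72 and 10.67 at 24 h and then 10.69 and 10.76 at 48 h in NBTII. Ube2c in NBTII-FGFR1 read 10.51 and 10.65 at 0 h, 10.52 at 0.5 h, 9.64 and 10.23 at 2 h, 10.11 and 10.15 at 6 h, 10.89 and 10.83 at 24 h and then 9.84 and 9.99 at 48 h. All NBTII-FGFR1 arrays at 2, 6 and 48 h lay below the other 15. Cdc20, the activator of that complex, read 10.15 at 0 h, 9.71 at 0.5 h, 9.47 and 9.71 at 2 h, 10.11 and 10.17 at 6 h, 9.99 and 9.79 at 24 h and then 9.92 and 9.81 at 48 h in NBTII. Cdc20 in NBTII-FGFR1 read 9.72 and 9.88 at 0 h, 9.89 at 0.5 h, 9.61 and 9.81 at 2 h, 9.27 and 10.17 at 6 h, 9.74 and 9.90 at 24 h and then 9.28 and 9.31 at 48 h. Its NBTII-FGFR1 replicates at 6 h stood 9.27 against 10.17, the lowest and among the highest of the 21 arrays, so its mean there describes neither.

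Aurka and Plk1 had the highest differences of the 18 mitosis genes from 2 to 6 h in both lines. In NBTII-FGFR1 6 of the 18 differences lay above 0 and 12 below, and in NBTII 13 lay above and 5 below. Aurka, the kinase that matures centrosomes and the spindle poles, read 9.50 at 0 h, 9.09 at 0.5 h, 9.05 and 9.16 at 2 h, 10.05 and 9.95 at 6 h, 9.56 and 9.10 at 24 h and then 9.20 and 9.39 at 48 h in NBTII. Aurka in NBTII-FGFR1 read 9.12 and 9.09 at 0 h, 9.14 at 0.5 h, 8.70 and 8.47 at 2 h, 9.28 and 9.44 at 6 h, 9.56 and 9.35 at 24 h and then 8.55 and 8.53 at 48 h. NBTII at 6 h was highest of all 21 arrays without overlap, and NBTII-FGFR1 at 2 and 48 h were the lowest 4. Aurka rose by 0.90 ± 0.14 from 2 to 6 h in NBTII (adjusted p = 0.0047) and by 0.77 ± 0.14 in NBTII-FGFR1 (adjusted p = 0.0025), the only member called higher at 6 h in that line. Plk1, the Polo kinase that triggers mitotic entry and chromosome separation, read 9.41 at 0 h, 9.20 at 0.5 h, 8.55 and 8.97 at 2 h, 9.72 and 9.72 at 6 h, 9.44 and 9.01 at 24 h and then 9.32 and 9.27 at 48 h in NBTII. Plk1 in NBTII-FGFR1 read 9.15 and 9.70 at 0 h, 9.47 at 0.5 h, 9.03 and 8.72 at 2 h, 9.18 and 9.33 at 6 h, 9.69 and 9.58 at 24 h and then 8.55 and 8.76 at 48 h. Plk1 rose by 0.96 ± 0.19 from 2 to 6 h in NBTII (adjusted p = 0.015), where the groups did not overlap, and differed by 0.38 ± 0.19 in NBTII-FGFR1 (adjusted p = 0.18).

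From 2 to 6 h in NBTII-FGFR1, most replication genes and fewer of the mitosis genes were called lower. Limma called 19 of 26 replication genes lower and none higher, with a median difference of -0.70, where 9.59% of all 15866 probe sets were called lower and their median difference was 0.08. The largest were Pola1, Mcm2 and Pold1, the catalytic subunit of DNA polymerase delta (-1.19 ± 0.19, adjusted p = 0.001). By role, 6 of 7 helicase genes, all 7 polymerase and primase genes, 3 of 4 single-strand binding and lagging-strand genes, 2 of 4 clamp genes, 1 of 3 nucleotide genes and not Ccne1 were called. Of the mitosis genes 7 of 18 were called lower and Aurka was called higher, with a median of -0.32, where 7.4% of probe sets were called higher. Mki67 (-1.37 ± 0.25, adjusted p = 0.0019), Bub1b (-1.18 ± 0.21, adjusted p = 0.0017) and Top2a (-1.08 ± 0.21, adjusted p = 0.0028) fell most. With only the 4 arrays compared, and so a spread estimated from 2 residual degrees of freedom, 4 replication genes and 1 mitosis gene were called lower, and without both doubted arrays the replication count was 13.

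Both classes rose from 6 to 24 h in NBTII-FGFR1. Limma called 23 of 26 replication genes higher and none lower (median 0.86), where 8.98% of probe sets were called higher, 5.81% lower, and their median was -0.05. Tyms (1.29 ± 0.23, adjusted p = 0.0017), Pola1 (1.28 ± 0.18, adjusted p = 0.00055) and Pold1 (1.27 ± 0.19, adjusted p = 0.00075) rose most. Rfc4, Dut, which clears dUTP, and Ccne1 missed the threshold at 0.42, 0.36 and 0.37. Of the mitosis genes 14 of 18 were called higher (median 0.70), and all 18 differences lay above 0. The calls were led by Kif20a, a kinesin of cytokinesis (1.27 ± 0.21, adjusted p = 0.0013), Bub1b (1.15 ± 0.21, adjusted p = 0.0021) and Ccnb2 (1.02 ± 0.13, adjusted p = 0.00021). Those that did not pass were Cks2 at 0.16, Aurka at 0.10, Cdc20 at 0.10 and Plk1 at 0.38. The mitosis count was 9 without 6 h replicate 1, 7 without 24 h replicate 1 and 9 without 24 h replicate 2.

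From 24 to 48 h both classes fell in NBTII-FGFR1. Limma called 25 of 26 replication genes lower (median -0.86), where 5.44% of probe sets were called lower and their median was 0.00, and the exception was Rfc4 at -0.51. The helicase subunits Mcm5 (-1.38 ± 0.19, adjusted p = 0.00062) and Mcm6 (-1.23 ± 0.19, adjusted p = 0.0011) and Tyms (-1.27 ± 0.23, adjusted p = 0.0027) fell most. In Mcm5 the arrays read 9.68 and 9.70 at 24 h and 8.16 and 8.46 at 48 h, and in Mcm6 they read 9.45 and 9.38 at 24 h and 8.13 and 8.25 at 48 h, without overlap in either. Of the mitosis genes 15 of 18 were called lower (median -0.87), and all 18 differences lay below 0. The calls were led by Aurkb, the kinase of the chromosomal passenger complex (-1.17 ± 0.13, adjusted p = 0.00019), Ccnb2 (-1.13 ± 0.13, adjusted p = 0.00019) and Kif20a (-1.11 ± 0.21, adjusted p = 0.0041). Aurkb read 8.20 and 8.34 at 24 h and 6.996 and 7.20 at 48 h, again without overlap. In this step Aurka (-0.92 ± 0.14) and Plk1 (-0.98 ± 0.19) fell with their class, and Cdc20 at -0.53, Top2a at -0.63 and Kif22, a chromosome-bound kinesin, at -0.34 were not called. The mitosis count was 7 without 24 h replicate 1 and 6 without 48 h replicate 1.

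**Figure D4:**
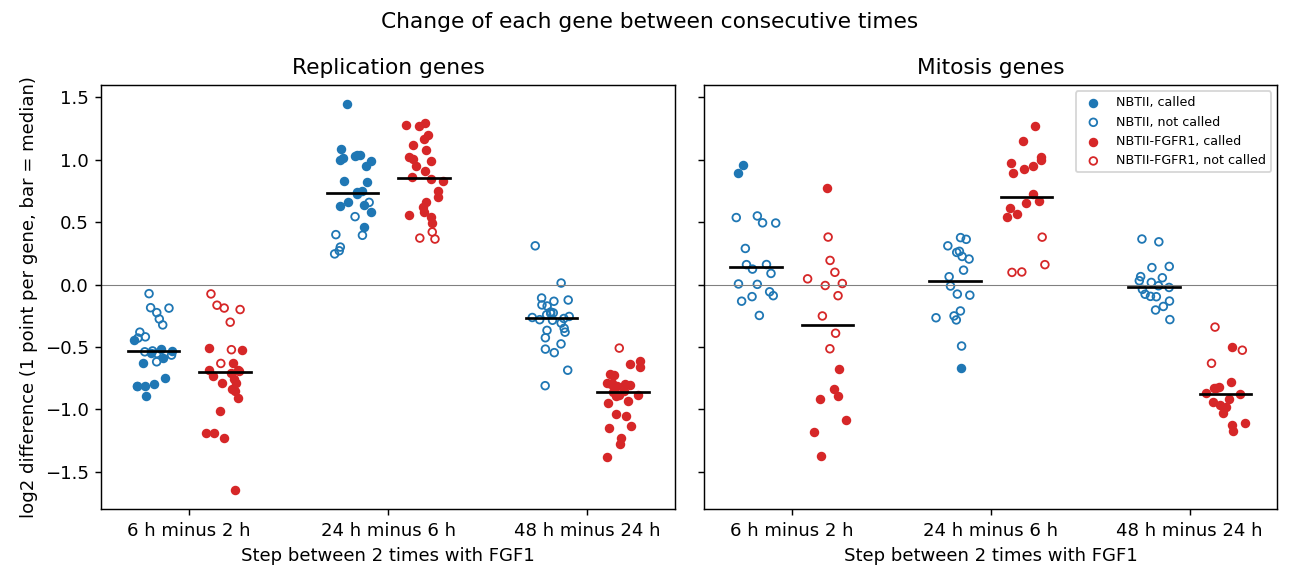
Log2 difference of each member (points) for the steps 6 against 2 h, 24 against 6 h and 48 against 24 h, by class and line, with the class median as a bar. The replication medians are -0.70, 0.86 and -0.86 in NBTII-FGFR1 and -0.53, 0.73 and -0.27 in NBTII, and the mitosis medians are -0.32, 0.70 and -0.87 against 0.14, 0.03 and -0.02.

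In NBTII replication genes fell and rose over the same hours, and no mitosis gene was called lower at 6 h or higher at 24 h. From 2 to 6 h limma called 12 of 26 replication genes lower (median -0.53), where 1.08% of probe sets were called lower and their median was -0.01. The largest falls were those of Tyms (-0.89 ± 0.23, adjusted p = 0.045), Rpa2, which binds single-stranded DNA (-0.81 ± 0.17, adjusted p = 0.019), and Mcm2. No mitosis gene was called lower, 2 were called higher, where 2.22% of probe sets were, and the median was 0.14. Those were Plk1 and Aurka, and Cdc20 at 0.55 and Ube2c at 0.54 missed the threshold. The count of 12 was 2 without 2 h replicate 1, 6 without 2 h replicate 2, 2 without 6 h replicate 1, 0 without 6 h replicate 2, 7 with array weights and 1 with only the arrays compared. The count of 2 was 1 without 2 h replicate 1, 0 without 6 h replicate 1, and 1 both without 6 h replicate 2 and with only the arrays compared.

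From 6 to 24 h in NBTII, 19 of 26 replication genes were called higher (median 0.73), and all 26 differences lay above 0. Over all probe sets 3.93% were called higher and the median was 0.03. Tyms (1.44 ± 0.23, adjusted p = 0.0014), Pold1 (1.08 ± 0.19, adjusted p = 0.0033) and Mcm2 (1.04 ± 0.15, adjusted p = 8e-04) rose most. The 7 that missed the threshold were Pcna, Rfc4, Pola1, its partner Pola2, Pole, the catalytic subunit of DNA polymerase epsilon, Rrm1, the large subunit of ribonucleotide reductase, and Dut, at 0.25 to 0.66. Of the mitosis genes limma called none higher and Aurka lower (-0.67 ± 0.14, adjusted p = 0.01), with a median of 0.03, where 4.37% of probe sets were called lower. From 24 to 48 h limma called no replication or mitosis gene in NBTII, where 0.0126% of probe sets were called lower and 0.0504% higher. At an unadjusted p below 0.05, 10 replication genes were lower (median -0.27) and no mitosis gene was lower or higher (median -0.02), where 5.45% of probe sets were lower.

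At 6 h the lines differed in mitosis genes. Limma called 9 of 18 mitosis genes lower in NBTII-FGFR1 than in NBTII at 6 h (median -0.61), where 1.1% of probe sets were called lower and their median was 0.01. Top2a (-0.93 ± 0.21, adjusted p = 0.037), Kif20a (-0.91 ± 0.21, adjusted p = 0.044) and Ube2c (-0.83 ± 0.16, adjusted p = 0.021) differed most among those called. Mki67 had a larger difference, -0.99 ± 0.25, that missed the threshold (adjusted p = 0.059). Ccnb1, Ccnb2 and Cdk1, the kinases Aurka and Aurkb, and Racgap1, a regulator of cytokinesis, made up the other 6, with Ccnb2 at the smallest p (-0.82 ± 0.13, adjusted p = 0.0077). No replication gene was called at 6 h (median -0.20), and 6 were lower at an unadjusted p below 0.05, where 8.06% of probe sets were and 0.611% were called higher after adjustment. The mitosis count was 1 and 0 without NBTII 6 h replicate 1 and replicate 2, and 1 and 4 without NBTII-FGFR1 6 h replicate 1 and replicate 2. It was 4 with either array of NBTII at 48 h left out, 5 with either of NBTII-FGFR1 at 48 h, and 0 with only the arrays compared.

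At 2 and 24 h no member of either class was called between the lines. At 2 h limma called 0.662% of probe sets lower and 1.46% higher. At an unadjusted p below 0.05 the 2 h comparison gave 1 replication gene and 3 mitosis genes lower and 1 mitosis gene higher, where 11.3% of probe sets were lower and 10.6% higher. At 24 h limma called 0% of probe sets lower and 0.101% higher, and at an unadjusted p below 0.05 2 replication genes were higher, 2 were lower and no mitosis gene was either, where 6.34% and 7.63% of probe sets were. The class medians were 0.01 and -0.00 at 2 h and -0.08 and 0.12 at 24 h. Without NBTII-FGFR1 2 h replicate 2, 2 replication genes were called higher and 2 mitosis genes lower at 2 h.

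At 48 h both classes were lower in NBTII-FGFR1. Limma called 20 of 26 replication genes (median -0.68) and 14 of 18 mitosis genes (median -0.73) lower, where 3.71% of probe sets were called lower and their median was -0.05. Mcm5 (-1.30 ± 0.19, adjusted p = 0.001), Mcm6 (-1.28 ± 0.19, adjusted p = 0.0011) and Mcm2 (-1.06 ± 0.15, adjusted p = 0.00082) led the replication genes. In Mcm5 the NBTII arrays read 9.76 and 9.46 at 48 h against 8.16 and 8.46, and in Mcm6 9.62 and 9.31 at 48 h against 8.13 and 8.25. Gins1, part of the helicase, Rfc4, Pold2, Prim1, Rrm1 and Tyms missed the threshold, at -0.54 to -0.14. Mki67 (-1.08 ± 0.25, adjusted p = 0.015), Ccnb2 (-1.06 ± 0.13, adjusted p = 0.00031) and Kif20a (-1.03 ± 0.21, adjusted p = 0.0082) led the mitosis genes, and Plk1 at -0.64, Cdc20 at -0.57, Kif22 at -0.28 and Tacc3, a spindle protein, at -0.44 were not called. The replication count was 9 and 10 without NBTII 48 h replicate 1 and replicate 2, and 7 and 11 without NBTII-FGFR1 48 h replicate 1 and replicate 2. The mitosis count was 5 and 7 without the NBTII 48 h replicates and 3 without NBTII-FGFR1 48 h replicate 1.

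**Figure D5:**
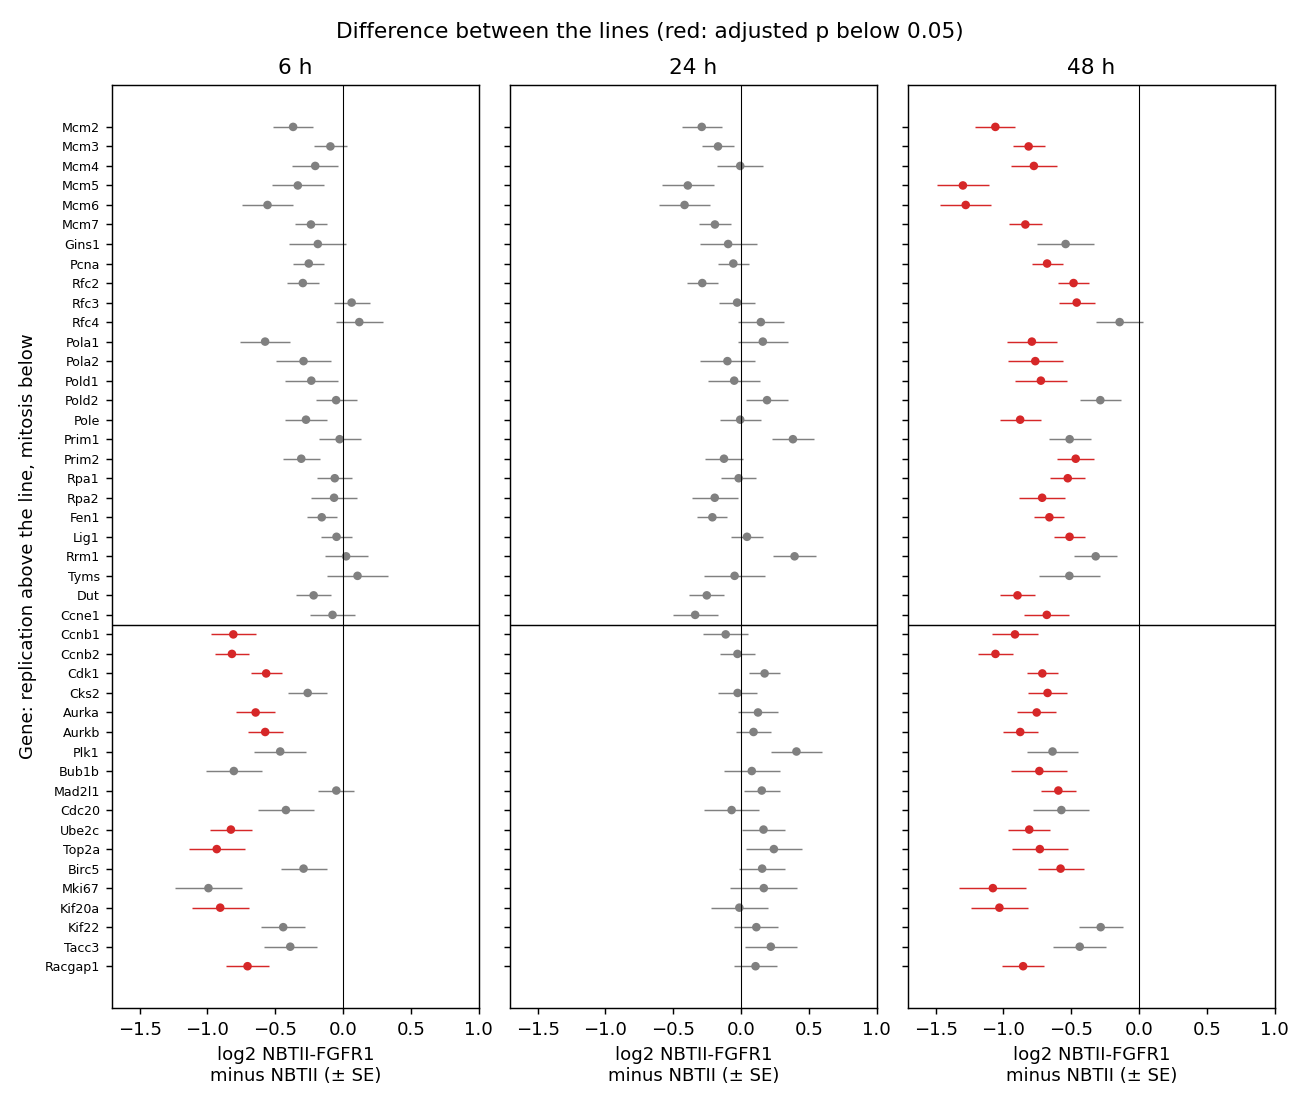
Log2 difference of each member, NBTII-FGFR1 minus NBTII, at 6, 24 and 48 h (points, with standard errors as bars), by class. Red marks members that limma called (adjusted p below 0.05). The mitosis median is -0.61 at 6 h and -0.73 at 48 h, and the replication median is -0.20 at 6 h and -0.68 at 48 h.

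Whether a step itself differed between the lines was tested with the line-by-time terms, and no member passed in any of them after adjustment. For 24 against 6 h the mitosis median of the difference between steps was 0.76 and the replication median 0.09, and limma called 0.0063% of probe sets lower and 0% higher. At an unadjusted p below 0.05, 14 mitosis genes and 1 replication gene had the larger difference in NBTII-FGFR1, where 5.12% of probe sets did. For 6 against 2 h the medians were -0.49 and -0.15, with 8 mitosis and 3 replication genes lower at an unadjusted p below 0.05, where 9.2% of probe sets were, and 0.113% were called lower and 0.0189% higher after adjustment. For 48 against 24 h the medians were -0.88 for mitosis and -0.63 for replication, with 16 and 20 genes lower unadjusted, where 3.93% of probe sets were, and 0% were called lower and 0.0126% higher after adjustment. The smallest adjusted p-values there were those of Ccnb2 (-1.03 ± 0.18, adjusted p = 0.07), Cdk1 (-0.89 ± 0.16, adjusted p = 0.091) and Aurkb (-0.97 ± 0.18, adjusted p = 0.099). Over 26 alternative fits the mitosis median ranged from -0.76 to -0.28 for 6 against 2 h and from -0.96 to -0.80 for 48 against 24 h. The replication median ranged from -0.295 to -0.07 and from -0.69 to -0.52. Leaving out replicate 2 of either line's 2 h group raised the calls for 6 against 2 h, among members and over all probe sets. Leaving out either array of NBTII-FGFR1 at 2 h did so for 48 against 24 h. With array weights 7 mitosis genes and 1 replication gene were called lower for 48 against 24 h, where 86 of 15866 probe sets were called in either direction.

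Against the 0 h arrays, which these comparisons share, the classes in NBTII-FGFR1 stood low at 6 and 48 h and near their start at 24 h. At 6 h 24 replication genes and 10 mitosis genes were called lower, where 11.9% of probe sets were, and at 48 h 25 and 15 were, where 10.9% were. At 6 h Mki67 (-1.80 ± 0.25), Bub1b (-1.57 ± 0.21) and Kif20a (-1.33 ± 0.21) led the mitosis genes, and Pold2, a polymerase delta subunit, stood at -1.27 ± 0.15. At 48 h Mcm5 (-1.45 ± 0.19), Pole (-1.44 ± 0.15) and Prim1 (-1.33 ± 0.16) led the replication genes, and Mki67 (-1.73 ± 0.25), Bub1b (-1.24 ± 0.21) and Ccnb2 (-1.19 ± 0.13) the mitosis genes. Without the first 0 h library labelled NBTII-FGFR1 the replication counts were 19 at both times, and the mitosis counts were 9 and 13. Without 48 h replicate 1 the mitosis count at 48 h was 8.

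At 24 h Pole was lower (-0.58 ± 0.15, adjusted p = 0.036), where 2.73% of probe sets were called lower, and Cdk1 was higher (0.41 ± 0.11, adjusted p = 0.044), where 3.57% were called higher. Both calls were lost without the first 0 h library labelled NBTII-FGFR1 and with only the arrays compared, and the Pole call without 24 h replicate 2. The Cdk1 call was also lost without 0 h replicate 2, with either array of NBTII-FGFR1 at 24 h left out, or with any 1 left out of the NBTII 6 h and both lines' 48 h arrays. At 2 h Ccne1 (-0.56 ± 0.16, adjusted p = 0.045), Ube2c (-0.65 ± 0.16, adjusted p = 0.018) and Aurka (-0.51 ± 0.14, adjusted p = 0.037) were lower than at 0 h in NBTII-FGFR1, where 4.08% of probe sets were. Without the first 0 h library labelled NBTII-FGFR1 the replication count of 1 was 0 and the mitosis count of 2 was 1, and with replicate 2 of that group left out the mitosis count was 0. The replication count was also 0 without any 1 of the NBTII-FGFR1 6 h, NBTII 24 h and both lines' 48 h arrays, and the mitosis count was 1 without either NBTII-FGFR1 48 h array. At 0.5 h, with 1 array in each line, Mad2l1, a spindle checkpoint protein, was lower (-0.54 ± 0.12, adjusted p = 0.032), where 0.517% of probe sets were. That count of 1 was 0 without the first 0 h library labelled NBTII-FGFR1 or either NBTII-FGFR1 48 h array, and 2 when any 1 of the NBTII-FGFR1 arrays at 2 h was left out.

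In NBTII the 0 h group was 1 array with no spread of its own, so these calls rest on the spread of the other groups. By that fit 12 replication genes and Ccnb2 were called lower at 6 h than at 0 h, where 2.2% of probe sets were. Tyms (-1.53 ± 0.28, adjusted p = 0.0044), Mcm2 (-1.07 ± 0.18, adjusted p = 0.0029) and Pola1 (-0.98 ± 0.23, adjusted p = 0.018) stood lowest, beside Ccnb2 (-0.69 ± 0.15, adjusted p = 0.016). The replication count was 6 and 4 without 6 h replicate 1 and replicate 2, and 0 with only the 3 arrays compared, where the adjusted p of these 12 genes was 0.11 to 0.19. The Ccnb2 call was lost without 6 h replicate 1 and with only the arrays compared, and 2 mitosis genes were called with either array of NBTII-FGFR1 at 6 h left out. At 2, 24 and 48 h limma called no member in NBTII, where 0.983%, 0.372% and 0.328% of probe sets were called lower and 1.95%, 0.567% and 0.58% higher. At an unadjusted p below 0.05, 4, 0 and 4 replication genes and 14, 2 and 3 mitosis genes were lower at these times, where 7.79%, 5.11% and 5.5% of probe sets were. Between 1 and 3 mitosis genes were called at 2 h when NBTII 2 h replicate 2 or any 1 of the NBTII-FGFR1 arrays at 2 and 6 h was left out.

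How alike the members ran was described by Pearson's r over the 21 arrays, which share both lines and all times. A replication gene correlated with the mean of the other replication genes at a median of 0.88, and a mitosis gene with the mean of the other mitosis genes at a median of 0.75, while the means of the classes correlated at 0.76. Of the replication genes 25 of 26 were more like their own class, with Dut as the exception, and of the mitosis genes 16 of 18 were, with Aurkb and Mki67 as the exceptions. Among the replication genes Rfc4 was least like its class, at 0.54. Aurka correlated with the replication mean at 0.02 and with its own class at 0.48, Plk1 at 0.18 and 0.65, Kif22 at 0.18 and 0.51, and Cdc20 at 0.30 and 0.69.

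Among 10304 genes outside the list, those whose course was most like the replication mean were Melk, Gart and Tcf19 at 0.97, Haus4 at 0.95, Tk1 and Ung at 0.93, and Timeless and Chaf1a at 0.92. Melk is a kinase of the wider G2 and M list, and Haus4 belongs to the spindle's augmin complex. Gart makes purines, Tk1 salvages thymidine, Ung removes uracil from DNA, Timeless travels with the replication fork and Chaf1a places histones on new DNA. Those most like the mitosis mean were Kif2c at 0.97, Knstrn at 0.94, Spag5 at 0.92, Cdca3 at 0.91, Lmnb1 and Nup37 at 0.89, Dlgap5 at 0.88 and Cdca8 at 0.87. Kif2c is a kinesin that takes microtubules apart, Knstrn and Spag5 act at kinetochores and spindle poles, and Lmnb1 is a lamin of the nuclear envelope.

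Other genes of the same phases, none of them a member, were taken as wider lists. The list of licensing, firing and S phase had 21 measured genes of 40. In NBTII-FGFR1 limma called 9 lower from 2 to 6 h (median -0.43), where 9.59% of probe sets were. It called 12 higher from 6 to 24 h (median 0.65), where 8.98% were, and 13 lower from 24 to 48 h (median -0.65), where 5.44% were. The largest falls to 6 h were Ung (-1.55 ± 0.18), Rfc1 (-0.95 ± 0.17) and Dnmt1 (-0.92 ± 0.13), the last the maintenance DNA methyltransferase. The largest rises to 24 h were Ung (1.73 ± 0.18), Pold3 (1.42 ± 0.19) and Timeless (1.24 ± 0.20), and the largest falls to 48 h were Timeless (-1.29 ± 0.20), Chaf1a (-1.06 ± 0.14) and Tk1 (-1.03 ± 0.15). The count of 9 was 4 without 2 h replicate 1, without 6 h replicate 2, without both doubted arrays or with array weights, and 1 with only the arrays compared, while the count of 13 was 8 without 24 h replicate 1 and 5 without 48 h replicate 1.

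In NBTII 1 gene of that list was called lower from 2 to 6 h, Ung (-1.12 ± 0.18), with a median of -0.29, where 1.08% of probe sets were. From 6 to 24 h 9 were called higher (median 0.41), where 3.93% of probe sets were, led by Ung (1.88 ± 0.18), Chaf1a (0.93 ± 0.14) and Ccne2 (0.85 ± 0.20). Ung read 9.15 and 9.14 at 2 h, 8.18 and 7.86 at 6 h, 9.77 and 10.04 at 24 h and then 9.47 and 9.35 at 48 h in NBTII. Ung in NBTII-FGFR1 read 9.55 and 9.02 at 2 h, 7.92 and 7.56 at 6 h, 9.55 and 9.39 at 24 h and then 8.34 and 8.53 at 48 h. The 6 h arrays of both lines lay below those at 2 and 24 h. The Ung call at 6 h was lost without 6 h replicate 2, and 2 genes were called with either array of NBTII-FGFR1 at 2 h left out. The count of 9 was 3 without 6 h replicate 2 and 4 without either 24 h array. Between the lines 1 gene was lower at 6 h, Gins3 (-0.64 ± 0.12), where 1.1% of probe sets were, a call lost without either NBTII 6 h array or NBTII-FGFR1 6 h replicate 1. At 48 h 11 were lower (median -0.53), where 3.71% of probe sets were, led by Gins3 (-1.11 ± 0.12), Ung (-0.98 ± 0.18) and Rpa3 (-0.93 ± 0.22), but 1 without NBTII 48 h replicate 1, 7 without replicate 2, and 1 and 6 without NBTII-FGFR1 48 h replicate 1 and replicate 2.

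The list of G2 and M had 27 measured genes of 53. In NBTII-FGFR1 limma called 10 lower and 1 higher from 2 to 6 h (median -0.40), where 9.59% and 7.4% of probe sets were. It called 13 higher from 6 to 24 h (median 0.45), where 8.98% were, and 15 lower from 24 to 48 h (median -0.73), where 5.44% were. The falls to 6 h were largest in the condensin gene Ncapd2 (-1.33 ± 0.17) and in Kif15 (-0.91 ± 0.16) and Dlgap5 (-0.86 ± 0.19). Troap, a protein of the spindle and of cell adhesion, was the gene called higher (0.51 ± 0.11). The rises to 24 h were largest in Mybl2, which encodes B-MYB (1.05 ± 0.12), and in Kif2c (0.98 ± 0.15) and Dlgap5 (0.97 ± 0.19), and the falls to 48 h in Mybl2 (-1.30 ± 0.12), Lmnb1 (-1.09 ± 0.15) and Spc25 (-1.07 ± 0.17). The count of 13 was 8 without 6 h replicate 1 and 7 without 24 h replicate 1, the count of 15 was 9 without 48 h replicate 1, and with only the arrays compared the count of 10 was 1.

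In NBTII limma called no G2 and M gene lower from 2 to 6 h (median -0.002), where 1.08% of probe sets were. Their differences lay above 0 in 13 and below 0 in 14, where the median over all probe sets was -0.01. Troap was called higher (0.59 ± 0.11), 1 of 27 genes where 2.22% of probe sets were. From 6 to 24 h 3 were called higher (median 0.10), Mybl2 (0.97 ± 0.12), Cks1b (0.70 ± 0.14) and Melk (0.63 ± 0.13), where 3.93% of probe sets were. Fewer were called without 24 h replicate 1. Between the lines 6 were lower in NBTII-FGFR1 at 6 h (median -0.42), where 1.1% of probe sets were, led by Kif2c (-1.05 ± 0.15), Hmmr (-1.03 ± 0.24) and Espl1 (-0.99 ± 0.15). That count was 1 without either NBTII 6 h array, 3 and 2 without NBTII-FGFR1 6 h replicate 1 and replicate 2, and 3 without any 1 of the NBTII 24 h and NBTII-FGFR1 48 h arrays. At 48 h 19 were lower (median -0.79), where 3.71% of probe sets were, led by Lmnb1 (-1.38 ± 0.15), Kif15 (-0.998 ± 0.16) and Espl1 (-0.99 ± 0.15), but 12 without NBTII 48 h replicate 1 and 11 without NBTII-FGFR1 48 h replicate 1.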

How the data were processed

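The deposited table holds log2 expression values that the authors computed with RMA, as the submitters' processing notes say. Its version and settings are not given in the sources used here. Biotin-labelled cRNA from 6 µg of total RNA was hybridised, per the labels' protocols. The table was used as deposited, with no further normalization. The number of arrays limits the precision. Of 15866 probe sets that are not controls, 12783 carried a single symbol in the platform annotation.

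One limma 3.58.1 model (R 4.3.3) with 12 group means was fitted to all 21 arrays, with lmFit, contrasts.fit and eBayes (9 residual and 5.68 prior degrees of freedom). NBTII 0 h and both 0.5 h groups had 1 array and are assumed to vary like the others. Within each comparison p-values were adjusted by Benjamini-Hochberg over all 15866 probe sets, and "called" means an adjusted p below 0.05. Errors after ± are standard errors of the log2 difference, with 2 arrays in each group unless stated. The series text describes unduplicated controls. The titles nevertheless place 2 arrays at NBTII-FGFR1 0 h, and both were used.

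The members, the wider lists and the alternatives were chosen with earlier results of these data known. Values in every array were given for a fixed subset of members, and for each comparison the up to 3 called genes with the largest difference in each direction were named. The genes most alike were the 8 with the highest r to the class mean. The alternatives were a filter on low values, only the arrays compared, repeated quantile normalization, a trended robust prior, array weights, a replicate block, leaving out the doubted arrays and leaving out each of 18 arrays. Of the 44 measured members 39 matched 1 RefSeq promoter. Mcm4, Racgap1, Ube2c and Aurkb matched none, and Dut, with 2 entries, was left out of the motif counts.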

Additional observations from a re-analysis of the deposited data

Results flagged for a closer look

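Of the members and wider lists, 2 genes of the G2 and M list passed the test that the step from 2 to 6 h differs between the lines. In that test 0.113% of all 15866 probe sets were called lower and 0.0189% higher. Kif2c read 7.65 and 7.98 at 2 h and 8.33 and 8.42 at 6 h in NBTII, and 8.13 and 8.04 at 2 h and 7.09 and 7.56 at 6 h in NBTII-FGFR1. Each line's groups did not overlap, and they moved in opposite directions. The NBTII-FGFR1 step was -1.32 ± 0.22 below the NBTII step in log2 (limma, adjusted p = 0.043). Espl1, the separase that cuts cohesin at anaphase, read 7.13 and 7.37 at 2 h and 7.87 and 7.51 at 6 h in NBTII, and 7.42 and 7.59 at 2 h and 6.62 and 6.79 at 6 h in NBTII-FGFR1. Its steps differed by -1.24 ± 0.21 (adjusted p = 0.043). Of these 2 calls none remained with only the arrays compared, with array weights, after repeated quantile normalization or without both doubted arrays. Leaving out 1 array changed the count of 2 in each of the 18 fits run, to none in most of them. It went up without NBTII 2 h replicate 2 or NBTII-FGFR1 2 h replicate 2, where the calls over all probe sets rose as well.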

How the results depend on the processing

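Of 1560 counts recomputed under other settings for 60 counts of calls, 1384 stayed within 1.5 times the main count. Single calls of members did not reverse under any setting run: of 7110 settings of 274 calls, 638 fell short of the threshold. For the wider lists 321 of 3265 settings did, and none reversed.

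The median of the replication genes at NBTII-FGFR1 24 h against 0 h turned from -0.03 to 0.057 without both doubted arrays, and leaving out 1 array gave -0.108 to 0.057, above 0 when 0 h replicate 1 or 24 h replicate 2 was left out. That of the mitosis genes turned from 0.08 to -0.0595 without both doubted arrays, and leaving out 1 array gave -0.0595, without 0 h replicate 1, to 0.129.

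With only the arrays compared, which leaves few degrees of freedom, no gene was called among the mitosis genes at 0.5 h (0), either class in NBTII-FGFR1 at 2 h (0 and 0) or 24 h (0 and 0) against 0 h, either class in NBTII at 6 h against 0 h (0 and 0), the mitosis genes (0), S phase list (0) or G2 and M list (0) between lines at 6 h, or the G2 and M list by line and time at 6 h against 2 h (0). For NBTII-FGFR1 6 h against 2 h it gave 4 replication and 1 mitosis genes, and 1 gene in each wider list. For NBTII 6 h against 2 h it gave 1 and 1, and for NBTII 48 h against 24 h 1 replication gene.

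Repeated quantile normalization gave 2 replication and 4 mitosis genes in NBTII-FGFR1 at 2 h, 0 mitosis genes higher in NBTII-FGFR1 at 24 h and 1 lower in NBTII at 2 h against 0 h. It gave 1 mitosis gene by line and time at 48 h against 24 h and 0 in the G2 and M list at 6 h against 2 h. The trended robust prior gave 0 replication genes in NBTII-FGFR1 at 2 h and 0 mitosis genes at 24 h against 0 h, and the filter on low values 0 replication genes at 24 h.

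Array weights gave 0 replication and 1 mitosis genes in NBTII-FGFR1 at 2 h, 2 mitosis genes in NBTII at 6 h and 1 at 48 h against 0 h. In NBTII they gave 7 replication genes for 6 against 2 h, 1 mitosis gene higher for 24 against 6 h and 1 replication gene for 48 against 24 h. By line and time they gave 1 replication and 7 mitosis genes for 48 against 24 h, where 86 of 15866 probe sets were called in either direction. They gave 0 in the G2 and M list by line and time for 6 against 2 h, and in the S phase list 4 for NBTII-FGFR1 6 against 2 h. Without both doubted arrays NBTII-FGFR1 at 24 h against 0 h gave 0 and 0, NBTII at 2 h and 6 h against 0 h 2 and 2 mitosis genes, the S phase list 4 in NBTII-FGFR1 and 2 in NBTII for 6 against 2 h, and the G2 and M list by line and time 0. The cause was not tested for any of these.

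Leaving out 1 array moved these counts of replication genes: NBTII-FGFR1 2 h against 0 h from 1 to 0 to 1, 24 h against 0 h from 1 to 0 to 1, NBTII 6 h against 0 h from 12 to 4 to 15, NBTII 6 h against 2 h from 12 to 0 to 14, between lines at 2 h from 0 to 0 to 2 and at 48 h from 20 to 7 to 21, and by line and time at 6 h against 2 h from 0 to 0 to 1. For mitosis genes the ranges were 0 to 2 at 0.5 h (1), 0 to 3 at NBTII-FGFR1 2 h (2), 0 to 1 at 24 h (1) and 8 to 16 at 48 h (15) against 0 h, 7 to 14 for 24 against 6 h (14) and 6 to 16 for 48 against 24 h (15). In NBTII they were 0 to 3 at 2 h (0) and 0 to 2 at 6 h (1) against 0 h, 0 to 3 for 6 against 2 h (2) and 0 to 1 for 24 against 6 h (0). Between lines they were 0 to 2 at 2 h (0), 0 to 11 at 6 h (9) and 3 to 15 at 48 h (14), and by line and time 0 to 7 for 6 against 2 h (0) and 0 to 1 for 48 against 24 h (0). For the S phase list they were 4 to 13 (9) and 5 to 13 (13) for the 6 against 2 h and 48 against 24 h steps of NBTII-FGFR1, 0 to 2 (1) and 3 to 11 (9) for the first steps of NBTII, 0 to 1 (1) and 1 to 12 (11) between lines at 6 and 48 h, and 0 to 5 (0) by line and time for 6 against 2 h. For the G2 and M list they were 7 to 16 (13) and 9 to 17 (15) for the 24 against 6 h and 48 against 24 h steps of NBTII-FGFR1, 0 to 1 (0) and 1 to 4 (3) in NBTII, 1 to 9 (6) and 11 to 21 (19) between lines, and 0 to 9 (2) by line and time for 6 against 2 h.

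The labels do not say whether the replicate numbers pair arrays across groups, and the main model treated them as unpaired. The replicate differences of 9 groups correlated at -0.13 to 0.35 over 36 pairs, 15 of them above 0.1, which does not settle the question. With a replicate block no count moved by over 1.5 times, and Kif2c by line and time had an adjusted p of 0.041. With 2 arrays a group, differences near the standard errors given cannot be resolved, and probe sets low on the array have no separate measure of background here.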

Other observations

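Of the G1 cyclins, CDKs, E2F and pocket proteins 14 of 24 were measured, and of the CDK inhibitors 6 of 7. E2f8, an E2F that represses, read 5.45 at 0 h, 5.91 at 0.5 h, 5.34 and 5.53 at 2 h, 4.61 and 4.29 at 6 h, 5.58 and 5.71 at 24 h and then 5.25 and 5.28 at 48 h in NBTII. E2f8 in NBTII-FGFR1 read 6.06 and 5.74 at 0 h, 5.31 at 0.5 h, 5.07 and 5.18 at 2 h, 4.36 and 3.85 at 6 h, 5.38 and 5.25 at 24 h and then 4.25 and 4.29 at 48 h. It was low at 6 h in both lines and at 48 h in NBTII-FGFR1, as the replication members were. From 2 to 6 h E2f8 fell by 0.99 ± 0.16 in NBTII (limma, adjusted p = 0.0056) and by 1.02 ± 0.16 in NBTII-FGFR1 (adjusted p = 9e-04), and from 6 to 24 h it rose by 1.19 ± 0.16 and 1.21 ± 0.16 (adjusted p = 0.00061 and 0.00034). At 48 h E2f8 stood -1.003 ± 0.16 in NBTII-FGFR1 against NBTII (adjusted p = 0.002), and Tfdp1, the dimer partner of E2F factors, stood -0.69 ± 0.17 (adjusted p = 0.019). Myc, of the same list, was called higher there (0.47 ± 0.14, adjusted p = 0.048). The E2f8 values at 6 and 48 h in NBTII-FGFR1 lay below the highest lower quartile of any array (4.54), as did NBTII 6 h replicate 2.

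Cdkn1a, which encodes the CDK inhibitor p21, read 7.62 at 0 h, 8.496 at 0.5 h, 9.30 and 9.82 at 2 h, 8.65 and 8.69 at 6 h, 7.46 and 7.67 at 24 h and then 7.28 and 7.60 at 48 h in NBTII. Cdkn1a in NBTII-FGFR1 read 7.35 and 7.22 at 0 h, 8.32 at 0.5 h, 8.87 and 9.79 at 2 h, 8.87 and 9.59 at 6 h, 7.18 and 8.03 at 24 h and then 8.54 and 8.24 at 48 h. Its levels at 2 and 6 h lay above those at 24 h in both lines. From 6 to 24 h it fell by 1.11 ± 0.31 in NBTII (adjusted p = 0.039) and by 1.62 ± 0.31 in NBTII-FGFR1 (adjusted p = 0.0031). Cdkn2b, which encodes p15, rose by 0.82 ± 0.12 and 0.62 ± 0.12 over the same step (adjusted p = 0.0011 and 0.0039). At 48 h Cdkn2c, which encodes p18, was the 1 inhibitor of 6 called between the lines (-0.84 ± 0.15, adjusted p = 0.0036), where 3.71% of probe sets were called lower. Myc rose by 0.72 ± 0.14 from 2 to 6 h in NBTII (adjusted p = 0.013) and by 0.97 ± 0.14 in NBTII-FGFR1 (adjusted p = 4e-04), the step over which the replication genes fell.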
